A study of Mus musculus with 3 samples.

Results

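Sp9 is a zinc finger transcription factor of developing GABAergic neurons, and its binding was mapped in the mouse olfactory bulb by chromatin immunoprecipitation and sequencing. The genes described here are 10 that encode neuropeptides or calcium-binding proteins used as markers of interneuron classes: Npy, Penk, Trh, Tac1, Vip, Sst and Cck among the neuropeptide precursors, and Calb1, Calb2 and Pvalb among the calcium-binding proteins. Their peaks were taken as the lines of the authors' list of shared peaks whose gene name equals the symbol, which gave 12 of the 19979 peaks. There were 2 libraries immunoprecipitated with a homemade Sp9 antibody and 1 input library without antibody, all from olfactory bulbs of CD1 mice on postnatal days 0 to 2, with no genetic change or treatment named in the labels. Whether the immunoprecipitations came from separate animals is not stated, and the list holds 1 score per peak and no value for either library, so no peak has a replicate error and no test between groups could be made. The depth behind the peaks is unknown. A gene is called linked to a peak that carries its name, which does not place the peak in its promoter, an exon or an intron.

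Interneurons of the olfactory bulb are produced after birth as well as before it, migrate into the bulb, and settle as granule cells or as periglomerular cells around the glomeruli. Classes of these cells are told apart by what they contain. Calretinin (Calb2) and calbindin (Calb1), EF-hand proteins that buffer calcium, mark separate sets of periglomerular cells, and parvalbumin (Pvalb), another EF-hand buffer, marks interneurons of the external plexiform layer. Neuropeptides are cut from larger precursors, packed into dense core granules, released beside a fast transmitter, and sensed by G protein-coupled receptors. Cck differs from the others in that in the bulb it is best known from tufted cells, which are glutamatergic projection neurons. Factors of the Sp family bind GC-rich DNA, with the GC box (GGGCGG) as their classical site.

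Of the 10 genes, 7 (70%) had at least 1 linked peak, against 55.4% of all 21900 protein-coding genes. The 7 were Npy, Penk, Trh, Pvalb, Calb2, Calb1 and Tac1; Vip, Sst and Cck had none. Counting also the peaks of the next coding gene on either side gave 8 of the 10, against 82.8% of coding genes. The 12 peaks came to 1.2 per gene, against 0.819 per coding gene over the whole list. Of the 12 peaks, 5 (41.7%) reached the list's median of 210.06, as did 50% of all listed peaks, and 3 of the 10 genes (30%) had such a peak, against 35.4% of coding genes. A peak at or above the upper quartile of the score, 353.56, was linked to 1 of the 10 (10%), against 19.2% of coding genes. The median of the highest score per linked gene was 202.95 for these genes and 273.25 for all linked coding genes. With 10 genes, a single gene moves each share by 10 percentage points. The shares at or above the median and the upper quartile were within that 1 gene of the shares over all coding genes, so these counts do not set the 10 genes apart.

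**Figure D1:**
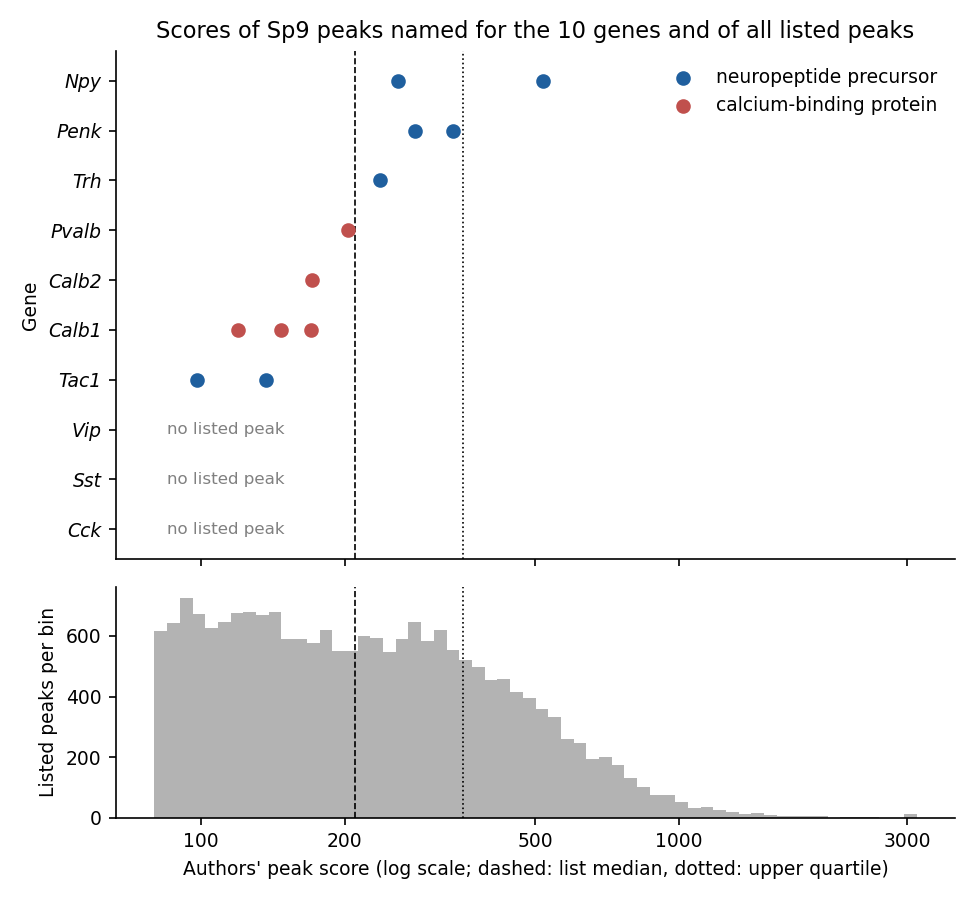
Scores of the 12 peaks linked to the 10 genes (upper panel, 1 point per peak, genes ordered by their highest score) above the number of all 19979 listed peaks per score bin (lower panel); the score axis is logarithmic, and the lines mark the median of 210.06 and the upper quartile of 353.56. The points of Npy, Penk and Trh lie above the median, and all points of Pvalb, Calb2, Calb1 and Tac1 lie below it.

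Neuropeptide genes held both ends of the range. Npy, the precursor of neuropeptide Y, had the highest score of the 10 genes, 520.63, at a peak of 1170 bp on chromosome 6 from 49566188 to 49567358 (mm9). It lay above 89.2% of all listed peaks and was the sole peak of the 12 above the upper quartile. A further Npy peak on the same chromosome, from 49772040 to 49773052, scored 258.74, above 59.9% of the list. The peaks were 205 kb apart with no listed peak of any name between them, so no single start site can lie under both.

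Penk, the precursor of the enkephalins, which are opioid peptides made by granule and periglomerular cells, had peaks of similar score. That on chromosome 4 from 4195833 to 4196443 scored 336.75 and that from 4065378 to 4066318 scored 281.05, above 72.9% and 64.1% of the list. They lay 130 kb apart. The higher of them was narrow for its score: at 610 bp it was wider than only 0.324% of the 1854 other peaks with a score within 10% of it, whose median width was 1164.5 bp. Per kilobase of width it had the highest value of the 12, 552, above 98.3% of all peaks, ahead of the higher Npy peak with 445.

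Trh, the precursor of thyrotropin-releasing hormone, had 1 peak, on chromosome 6 from 92277205 to 92278305. It scored 236.73, above 55.8% of the list, and with 1100 bp was close to the median of 1033 bp of peaks with like scores. Tac1, the precursor of substance P and neurokinin A, had the lowest values of the linked genes. Its peaks on chromosome 6 from 7282969 to 7284025 and from 7437104 to 7437808 scored 137.21 and 98.32, above 29.3% and 11.1% of the list, and lay 153 kb apart.

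All 3 calcium-binding protein genes were linked, against 55.4% of coding genes. None of their 5 peaks reached the median score, against 50% of all listed peaks. With only 3 genes, these counts do not set the class apart. Pvalb came closest with 1 peak of 202.95, above 48.4% of the list, on chromosome 15 from 78034445 to 78035002. This was the narrowest of the 12 peaks at 557 bp, wider than only 1.83% of the 1857 other peaks with a score within 10% of it. Per kilobase its value of 364 lay above 86.1% of the list. Calb2 had 1 peak of 170.72, above 40.2% of the list, on chromosome 8 from 112691581 to 112692626. Calb1 had 3 peaks, more than any other of the 10 genes. They lay on chromosome 4 and scored 169.93 (from 15807930 to 15809001), 147.14 (from 15505048 to 15505997) and 119.61 (from 15788937 to 15789786). The gene with the most peaks was thus among those with low scores. The highest Calb1 peak and the Calb2 peak differed by less than 1 score unit (169.93 and 170.72). No error is available to say whether these neighbours, or any others in the order of scores, differ beyond the spread between libraries. The highest scores of the 3 genes ran from 169.93 to 202.95, inside the range of 137.21 to 520.63 of the 4 linked neuropeptide genes.

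Several peaks with 1 name stood far apart. Between the closest peaks of a gene the gap was 205 kb for Npy, 153 kb for Tac1, 130 kb for Penk and 18.1 kb for Calb1, against a median of 14.1 kb over the 3383 coding genes with 2 or more peaks on 1 chromosome. From the first to the last peak Npy spanned 207 kb, Tac1 155 kb and Penk 131 kb, wider than 93%, 90% and 87.7% of the 2155 coding genes with 2 such peaks, whose median span was 22.6 kb. Calb1 spanned 304 kb, wider than 86.1% of the 689 coding genes with 3. Measured to the nearest listed peak of any name, the 12 peaks had a median gap of 121 kb and a smallest gap of 18.1 kb, against a median of 29.6 kb over the list. Another peak lay within 100 kb of 5 of the 12, against 80.9% of all listed peaks, and within 10 kb of 0 of the 12, against 28.2%.

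The stretch around each gene was measured from the end of the last peak of another name before it to the start of the first peak of another name after it. For all 4 genes with several peaks it was above the median of coding genes with as many peaks. It came to 743 kb for Penk (Sdr16c6 to Impad1), 714 kb for Npy (Stk31 to Mpp6) and 702 kb for Tac1 (Sdhaf3 to Asns). These exceeded 84%, 82.9% and 82.4% of the coding genes with 2 peaks. Calb1 had 678 kb (Tmem64 to Decr1), longer than 69.9% of those with 3 peaks and below their upper quartile of 787 kb. The medians over coding genes were 260 kb for those with 2 peaks and 368 kb for those with 3. Among the genes with 1 peak, Trh had 491 kb (Rbsn to Prickle2), Pvalb 285 kb (Cacng2 to Mpst) and Calb2 137 kb (Zfp612 to Cmtr2), against a median of 160 kb. Among these 7 genes, Calb2 alone lay below the median of coding genes with the same number of peaks. Over the list as a whole the median stretch lengthened with the number of peaks, from 160 kb at 1 peak to 569 kb at 4. Expressed per 100 kb, the 7 linked genes had from 0.204 peaks (Trh) to 0.729 (Calb2), and Calb1 with its 3 peaks had 0.443.

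**Figure D2:**
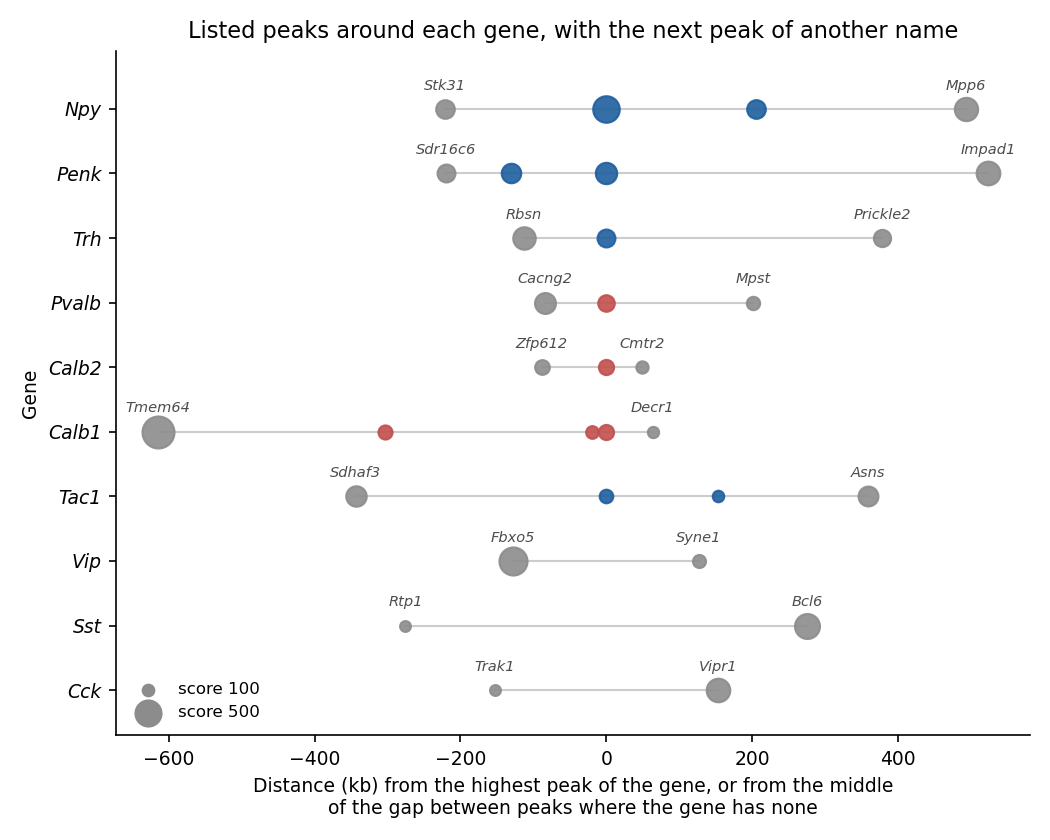
Listed peaks around each of the 10 genes (1 row per gene, point area proportional to the score, coloured points named for the gene, grey points the next peak of another name); distance in kb is from the gene's highest peak or, for genes with none, from the middle of the gap. Penk, Npy, Tac1 and Calb1 occupy stretches of 678 to 743 kb, and those of Vip, Sst and Cck hold no peak.

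The 3 genes without a linked peak lay in gaps between listed peaks that were longer than the median around coding genes without a peak. Sst, the precursor of somatostatin, falls between Rtp4 and Rtp2 in RefSeq gene order, neither of which had a peak, and the nearest listed peaks were named Rtp1 (87.16) and Bcl6 (461.85). The gap between them was 551 kb. It was longer than 84.1% of the like gaps around the 7747 coding genes without a peak that could be placed in this way. Their median was 190 kb, with a gap counted once for each such gene in it. Cck, the precursor of cholecystokinin, lies in a gap of 305 kb between a peak named for Trak1 (88.05), the next gene on that side, and a peak of 411 named for Vipr1, a receptor of vasoactive intestinal peptide. Vip itself, the precursor of that peptide, lies between Fbxo5 (581.81) and Syne1 (126.56) in a gap of 254 kb, and the genes directly beside it, Myct1 and Gm40595, had no peak. The names around Vip run in the opposite order in the list and in the RefSeq table, which belong to different builds, with Fbxo5 before Syne1 in the list and after it in the table. The gaps of Cck and Vip were longer than 66.7% and 60.6% of the like gaps. With the depth unknown, a weak peak at these 3 genes may have gone undetected.

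**Figure D3:**
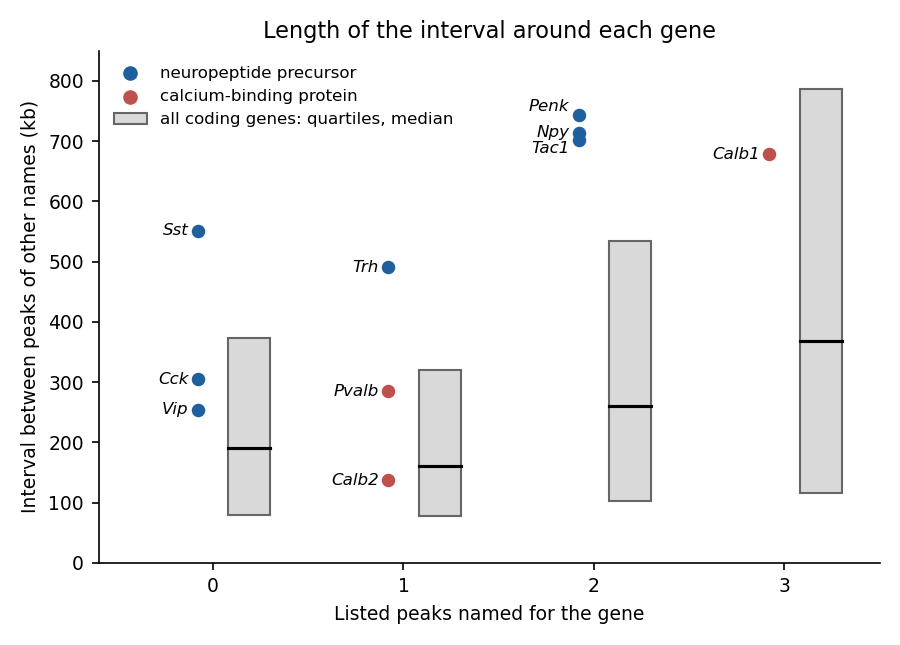
Length in kb of the stretch between peaks of other names (vertical axis) against the number of listed peaks named for the gene (horizontal axis), with 1 point for each of the 10 genes and, to its right, boxes for the lower quartile, median and upper quartile of all coding genes with that number of peaks. The points lie above the median for every gene other than Calb2, whose 137 kb compares with a median of 160 kb.

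The sequence before the gene's start could be read for 7 of the 10 genes from RefSeq promoter windows (build GRCm38.p6, 250 bases before to 50 after the start, 8 windows because Pvalb has 2). Penk, Calb1 and Calb2 have no entry in that table. The letters GGGCGG, searched on both strands, were present in the windows of Npy, Tac1 and Trh, once in each, and absent from those of Pvalb, Cck, Sst and Vip. Of the genes with a window, GC boxes were thus found in 3 of the 4 with a linked peak and in 0 of the 3 without. Over all 32851 windows, 35.7% held these letters, and of the 17492 coding genes with a window, 49.2% did. Among coding genes with the letters 76.1% had a linked peak, against 34.7% of those without, so the pattern among these 7 genes has the direction seen over the whole table. The table and the peak list belong to different builds, and whether any linked peak covers a window was not tested.

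The 250 bases before the start are given for the 3 genes with a GC box, set in capitals, and for Sst and Vip as genes with neither a box nor a linked peak. Each is written 5′ to 3′ along the gene. The windows are chr6:49822460-49822709 on the plus strand for Npy, chr6:7554811-7555060 on the plus strand for Tac1, chr6:92244651-92244900 on the minus strand for Trh, chr16:23890845-23891094 on the minus strand for Sst and chr10:5638968-5639217 on the plus strand for Vip (all GRCm38.p6).
Npy: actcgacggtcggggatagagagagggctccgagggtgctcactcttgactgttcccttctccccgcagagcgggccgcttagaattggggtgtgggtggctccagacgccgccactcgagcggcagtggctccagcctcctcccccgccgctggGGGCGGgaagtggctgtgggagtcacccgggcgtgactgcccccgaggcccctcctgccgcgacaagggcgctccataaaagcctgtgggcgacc
Tac1: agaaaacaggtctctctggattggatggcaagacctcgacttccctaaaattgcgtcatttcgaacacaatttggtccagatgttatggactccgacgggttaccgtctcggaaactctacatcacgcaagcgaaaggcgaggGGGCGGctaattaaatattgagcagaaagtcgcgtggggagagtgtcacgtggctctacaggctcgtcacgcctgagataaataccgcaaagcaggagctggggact
Trh: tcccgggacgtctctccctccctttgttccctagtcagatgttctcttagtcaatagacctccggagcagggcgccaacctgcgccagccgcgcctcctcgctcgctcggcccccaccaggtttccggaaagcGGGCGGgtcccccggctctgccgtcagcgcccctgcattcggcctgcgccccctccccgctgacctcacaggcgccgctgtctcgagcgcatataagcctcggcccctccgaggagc
Sst: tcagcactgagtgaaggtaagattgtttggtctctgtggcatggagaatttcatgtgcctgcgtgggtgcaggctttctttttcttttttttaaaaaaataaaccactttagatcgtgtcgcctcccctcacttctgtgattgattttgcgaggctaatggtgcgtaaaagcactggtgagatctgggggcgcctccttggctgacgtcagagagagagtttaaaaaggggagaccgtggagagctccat
Vip: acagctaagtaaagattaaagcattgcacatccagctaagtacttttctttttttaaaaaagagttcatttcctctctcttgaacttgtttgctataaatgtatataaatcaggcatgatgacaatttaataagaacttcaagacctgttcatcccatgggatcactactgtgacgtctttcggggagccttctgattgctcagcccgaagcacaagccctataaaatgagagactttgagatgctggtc

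The box began 95 bases before the start in Npy, 107 bases before it in Tac1 and 117 bases before it in Trh, on the strand of the gene in each. The windows also differed in base composition, though not always along with the letters. Trh had 25 CpG dinucleotides in its 250 bases, Npy 21 and Tac1 17, against 8 in Sst, 3 in Vip and a median of 10 over the windows of coding genes. The G and C content was 68.8% for Trh, 69.2% for Npy and 51.2% for Tac1. It was 47.2% for Sst and 38.4% for Vip, with a median of 55.6% over the windows of coding genes. Cck, without the letters, had 9 CpG and 60% G and C. The Pvalb windows had 23 and 4 CpG and no box, so a window with many CpG did not always hold the letters. Their G and C content was 71.6% and 58.4%. Tac1, with the letters, thus had less G and C than Cck and the Pvalb windows, without them. Of the 4 linked genes with a window, those with the box had highest scores of 520.63 (Npy), 236.73 (Trh) and 137.21 (Tac1). Pvalb, the only one without it, had 202.95. With Penk, Calb1 and Calb2 not readable, these genes cannot show whether the box goes with the score.

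Receptors of these peptides were widely linked. Of 21 receptor genes, 18 (85.7%) had a peak and 10 (47.6%) a peak at or above the median score, against 55.4% and 35.4% of coding genes. Trhr2 (741.65), Sstr4 (568.08), Tacr1 (568) and Tacr3 (479.73) were highest. Trhr2 encodes a receptor of thyrotropin-releasing hormone, and Trhr, the gene of the other, had no peak. Some receptors were linked where the gene of their peptide was not. All 5 somatostatin receptors were linked, with 9 peaks in all and highest scores from 145.76 (Sstr1) to 568.08 (Sstr4), although Sst had none. Both receptors of vasoactive intestinal peptide were linked, Vipr1 (411) and Vipr2 (214.42), and so were both cholecystokinin receptors, Cckbr (125.04) and Cckar (115.19), although Vip and Cck had none. Npy had the highest score of the peptide genes. Of the 4 Npy receptor genes among the 21, which need not be all of them, Npy6r (118.63) and Npy5r (84.69) had low peaks. Npy1r and Npy2r had none. This share of 50% linked was near the 55.4% of coding genes. The opioid receptors, which bind enkephalins among other peptides, were all linked, at 383.39 for Oprk1, 246.41 for Oprd1 and 179.61 for Oprm1. With 2 to 5 receptor genes listed per peptide, these counts do not set any peptide apart, and receptors and peptides were not tested against each other.

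Genes of peptide processing and of the granules that hold the peptides had a peak in 10 of 14 cases (71.4%, against 55.4% of coding genes). A peak at or above the median was linked to 5 (35.7%), about the 35.4% of coding genes. Vgf, a granule protein and peptide precursor induced by neurotrophins, scored 815.18, Cadps2 632.98 and Cadps 425.08, which encode proteins that prime dense core granules for release, and Pam, the enzyme that amidates peptide ends, 438.48. The prohormone convertase Pcsk2 and the granule genes Scg2 and Scg5, as well as Prepl, had no peak. Other neuropeptide precursors had a peak in 8 of 15 cases (53.3%, against 55.4% of coding genes) and a peak at or above the median in 4 (26.7%, against 35.4%). They were led by Adcyap1, the precursor of the peptide PACAP (381.67, 4 peaks), Ucn (267.52), Nppc (260.24) and Crh (236.56). Pdyn, Pnoc, Tac2 and Cort were among the 7 without, the last of them the precursor of cortistatin, a relative of somatostatin.

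Other EF-hand calcium-binding proteins included several genes with high scores. Of 24 such genes, 19 (79.2%) had a peak, against 55.4% of coding genes. A peak at or above the median was linked to 16 (66.7%), against 35.4% of coding genes and 0 of the 3 among Calb1, Calb2 and Pvalb. Only 3 genes stand on that side, and Pvalb at 202.95 lay just under the median of 210.06. Ncs1 (792.15) and Kcnip4 (792.66), a calcium sensor and a subunit that tunes potassium channels, were highest, followed by Hpcal1 (653.93, 5 peaks). Ocm, S100a6, Hpcal4 and Vsnl1 had none, as had Rcvrn; Ocm encodes oncomodulin, a member of the parvalbumin family. Scgn, which encodes secretagogin, another EF-hand marker of bulb interneurons, scored 183.67, in the range of the 3 markers. Because the 10 genes and these lists were chosen with results of the list known, their shares describe the list and were not tested.

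**Figure D4:**
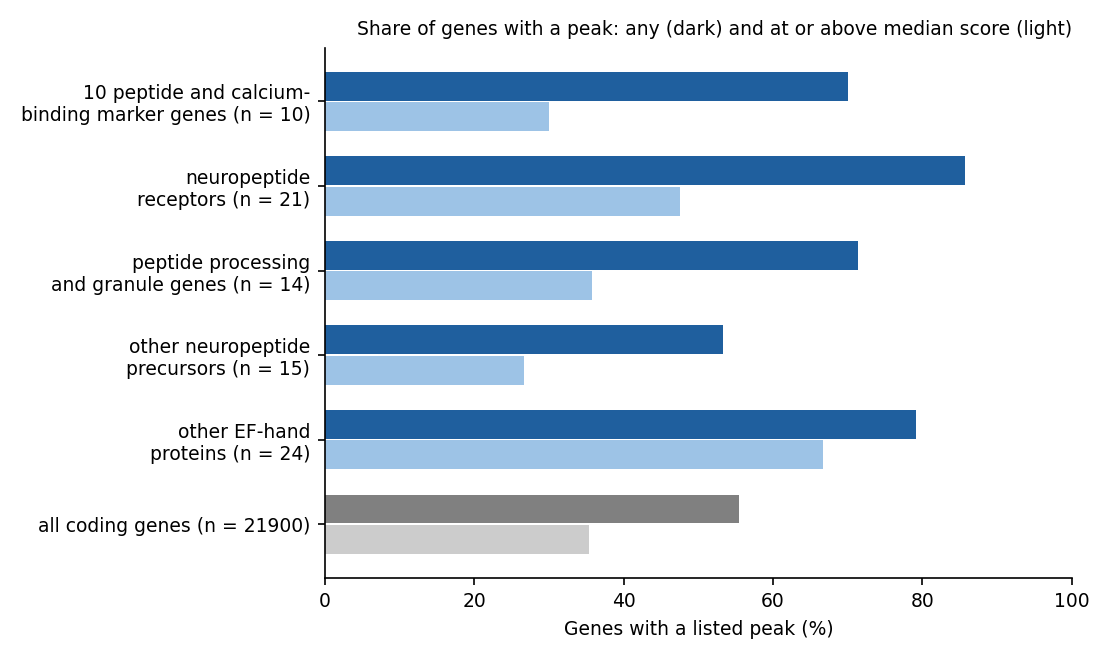
Percentage of genes with any listed peak (dark bars) and with a peak at or above the median score of 210.06 (light bars) for the 10 genes, 4 lists of related genes and all 21900 coding genes (grey), with the number of genes in each label. Any-peak shares run from 53.3% to 85.7% in the lists of related genes against 55.4% of coding genes, and the other EF-hand genes have the highest share at or above the median, 66.7%.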

How the data were processed

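The deposited file is the authors' list of shared peaks, where each line gives a position, a score and a gene name. The submitters' processing notes name Bowtie2 2.2.4, MACS 1.4.2 and mm9, without roles or settings. How the authors computed the deposited score, which rule made a peak shared, and which annotation named it, like the depth, are not given in the sources here, so scores only rank peaks within the list. Positions are printed as deposited.

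Names were matched to a RefSeq table (GRCm38.p6) by symbol (12806 names) or by a synonym held by 1 gene (527); 50 did not match. That table gave names and gene order only. Counts, gaps and motif searches used Python 3.11.15 with pandas 2.3.3, checked on simulated lists. The members, the lists of related genes and the quantities were chosen with earlier results of these data known, and no test was made. Named are the 10 genes, the names of the next peaks and genes, and up to 4 genes per list with the highest scores and up to 4 without a peak; Scgn, Rcvrn and the remaining receptors were named after their values had been seen. An item that this rule would name is not reported here. The motif alternative was GGGTGG beside GGGCGG.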

Additional observations from a re-analysis of the deposited data

How the results depend on the processing

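With the score limited to the list's median or more, 3 of the 10 genes and 5 of the 12 peaks were left, against 35.4% of coding genes. With the upper quartile or more, 1 gene (Npy) and 1 peak were left, against 19.2% of coding genes. The fewer peaks follow from the limit itself. At the median, linked receptors came to 10 of 21 (47.6%) and processing and granule genes to 5 of 14 (35.7%). Other precursors came to 4 of 15 (26.7%) and other EF-hand genes to 16 of 24 (66.7%), against the same 35.4% of coding genes. Synonyms added no gene (7), counting the next gene on either side gave 8 of 10, with Cck added through Trak1, against 82.8% of coding genes under that looser rule, and joining peaks of 1 gene under 1000 bp apart left 12. The median of the highest score per linked gene was 202.95. Taken per kilobase of width it was 215 in score units per kb. Penk then stood before Npy, and Pvalb (364, above 86.1% of the list) before Trh (215, above 50.3%). With GGGTGG as well, or with the 250 bases before the start alone, 3 genes still had a match. Leaving out a library and another overlap were not run, for want of values or intervals by library. No paired analysis was possible because the score is given once per peak and not for each library. Depth is unknown, which limits what the lack of a peak at Vip, Sst or Cck can show.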
